A study of Mus musculus with 4 samples.

Results

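Mammary tumours grown from KPB25Luv cells were compared with and without 7 days of checkpoint therapy, with 1 library of dissociated tumour on each side. Barcodes were kept as cells at 200 or more detected genes, 500 or more UMIs (unique molecular identifiers, each marking 1 captured transcript) and at most 10% of UMIs from mitochondrial genes. That left 5273 of 5509 barcodes in the treated library and 6475 of 6773 in the untreated library, 11748 of the 28200 cells kept in the 4 libraries of the series. Both groups were female FVB/NJ mice with tumour cells placed in the number 4 mammary gland, and tumours were assigned to a group at random once they measured 5 mm. The treated tumour received antibodies against PD1 (10 mg/kg) and CTLA4 (100 µg) biweekly from that diameter and was taken after 7 days. The untreated tumour is labelled as having had no treatment; a control antibody, a collection time of its own and the number of mice behind each library are not given in the sources used here. The series is described as models of triple negative breast cancer, and its other pair of libraries, T11-Apobec tumours in another strain, is used only where named.

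PD1 and CTLA4 are inhibitory receptors that T cells carry after activation, and antibodies against them release the activity of T cells that recognise tumour antigens. Activated T cells secrete interferon gamma, which acts in macrophages, neutrophils and tumour cells to raise MHC class I presentation, guanylate-binding proteins, the T cell attractants Cxcl9 and Cxcl10, and the PD1 ligand PD-L1 (Cd274). In mammary tumours, macrophages and neutrophils are the leading myeloid cells and are known for restraining T cells.

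The treated library held 30369476 UMIs with a median of 3866 per kept cell, and the untreated library 87677328 with a median of 9704; 47 barcodes occurred among the kept cells of both. Each cell was given to a class by the UMIs of fixed marker genes, so classes are named from those markers alone. A cell with strong markers of a second class was left out as a possible doublet, 118 treated and 285 untreated cells, and 28 and 163 cells reached no class. All 6 T cell, 8 B cell, 15 macrophage/monocyte and 11 neutrophil markers were detected in their own classes in both libraries. The feature list holds a neomycin resistance transcript, which had 0 UMIs in both libraries, a count that allows up to 0.0998 and 0.0345 CPM (counts per 1000000 UMIs). With 1 library per group there is no spread between samples, so no p-value is given and every interval covers counting error only.

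Tumour RNA was present outside tumour cells in the untreated library. Krt8, a keratin of simple epithelia, stood at 1563 CPM over all kept untreated cells. It was at 202 CPM in untreated T cells, 209 in B cells, 231 in macrophages and 268 in neutrophils, cell types that do not make keratin. These levels were 12.9, 13.4, 14.8 and 17.1% of the library level, a narrow range for Krt8 across unlike cell types. Markers of other classes gave larger and more varied shares in the same untreated cells. B cell markers stood at 30.05% of their library level in T cells. T cell markers stood at 36.3% in B cells, 46.5% in macrophages and 84.8% in neutrophils. The free RNA levels printed below for immune cells use the smaller share of epithelial markers. In the treated library Krt8 was at 128 CPM over all cells and at 1.90 in T cells, 2.47 in B cells and 5.46 in macrophages, and it had 0 UMIs in neutrophils. A Krt8 UMI was found in 50.3% of untreated T cells, or 17.7% once every cell was thinned to 1000 UMIs, against 1.04% and 0.129% of treated T cells. The 12 epithelial markers together came to 494 to 634 CPM in the untreated immune classes compared below and to 14.5 to 68.4 CPM in the treated ones. Other abundant transcripts followed: Gstt1, a glutathione transferase gene of the untreated tumour cells, was at 125 CPM in untreated and 1.77 CPM in treated T cells. For some genes that were lower after therapy and abundant in untreated tumour cells or macrophages, the free RNA level or the value after subtracting it is given.

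**Figure D1:**
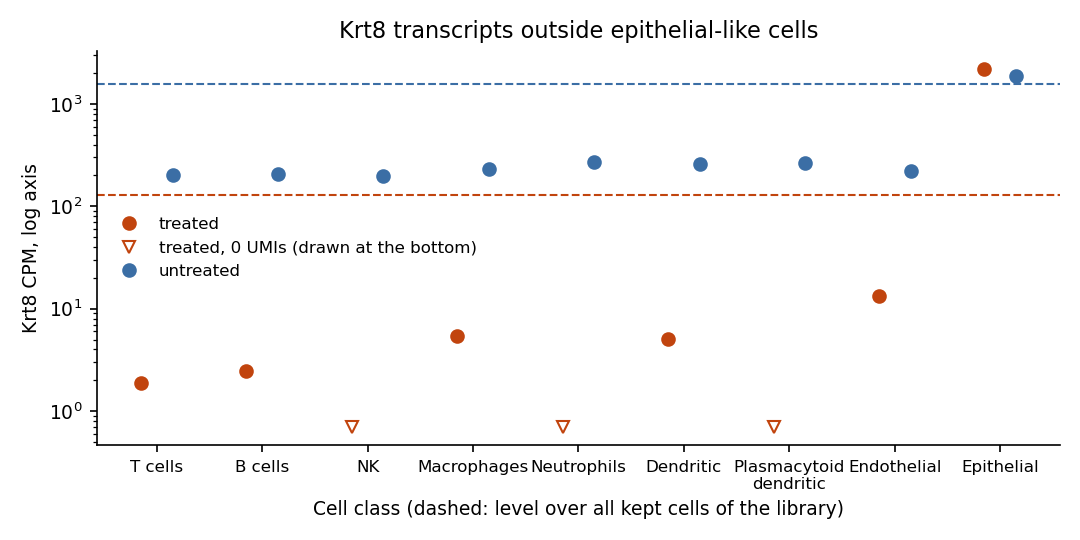
Krt8 level in each cell class of the treated (orange) and untreated (blue) library, in CPM on a log axis; dashed lines mark the level over all kept cells, 128 CPM treated and 1563 untreated, and open triangles mark classes with 0 UMIs. Untreated T, B, NK and dendritic cells, macrophages and neutrophils lie between 198 and 268 CPM, while treated ones lie at 5.46 CPM or below.

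Lymphocytes made up most of the treated tumour's immune cells, and myeloid and tumour cells most of the untreated library. T cells were 79.6% of immune cells in the treated library (95% exact interval 78.5 to 80.7%) and 41.9% in the untreated one (40 to 43.7%). B cells were 12.4% (11.5 to 13.3%) against 5.50% (4.70 to 6.4%), and plasma cells, which secrete antibody, numbered 74 against 1. The plasma cell log2 ratio was 4.81, and 0.64 when cells were thinned to 1000 UMIs before classes were set, so its size depends on depth. Macrophages and monocytes, taken as 1 class, were 3.0% (2.55 to 3.51%) against 24.6% (23 to 26.2%), and neutrophils 0.988% (0.734 to 1.30%) against 24.4% (22.8 to 26.0%). The intervals of the T cell, B cell, macrophage and neutrophil shares do not overlap between the libraries.

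Cells outside the immune classes were scarce after therapy. Epithelial-like cells, which here hold the keratin-positive tumour cells, made up 1.02% (0.770 to 1.33%) of the treated library and 47.1% (45.9 to 48.3%) of the untreated one, 54 cells against 3048. Endothelial cells numbered 8 against 81, fibroblasts 5 against 32 and pericytes 0 against 13. Immune cells were 96.0% and 44.1% of all cells, so shares of all cells give other ratios: for T cells the log2 ratio was 2.05 over all cells against 0.93 over immune cells, and for macrophages it was -1.91 against -3.03. The NK cell share among immune cells was 1.54% (1.22 to 1.92%) with therapy and 1.68% (1.24 to 2.23%) without, a difference within the counting intervals. Dendritic cells were 0.751% (0.532 to 1.03%) against 1.51% (1.09 to 2.03%), lower among immune cells but at a log2 ratio of 0.12 over all cells.

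Within T cells the CD4 fraction differed most. Cells with Cd4 and without Cd8 or Foxp3 transcripts made up 17.4% (16.2 to 18.6%) of T cells with therapy and 10.5% (8.79 to 12.4%) without, a log2 ratio of 0.72. Untreated cells of this kind had a median of 2411 UMIs and treated ones 3850, and the ratio was 0.27 when cells were thinned to 1000 UMIs before classes were set. CD8 T cells were 41.3% (39.8 to 42.8%) against 44.1% (41.2 to 46.9%) and Foxp3-positive T cells, the regulatory T cells, 6.46% (5.72 to 7.26%) against 5.53% (4.30 to 6.98%), both within the intervals. Among macrophages, cells with little C1q complement transcript, as in recently recruited monocytes, made up 78.3% (70.9 to 84.6%) with therapy and 32.1% (28.7 to 35.7%) without. Among epithelial-like cells, those rich in the tight junction claudins Cldn3, Cldn4 and Cldn7 made up 64.8% (50.6 to 77.3%) of the 54 with therapy and 12.5% (11.4 to 13.8%) of the 3048 without.

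**Figure D2:**
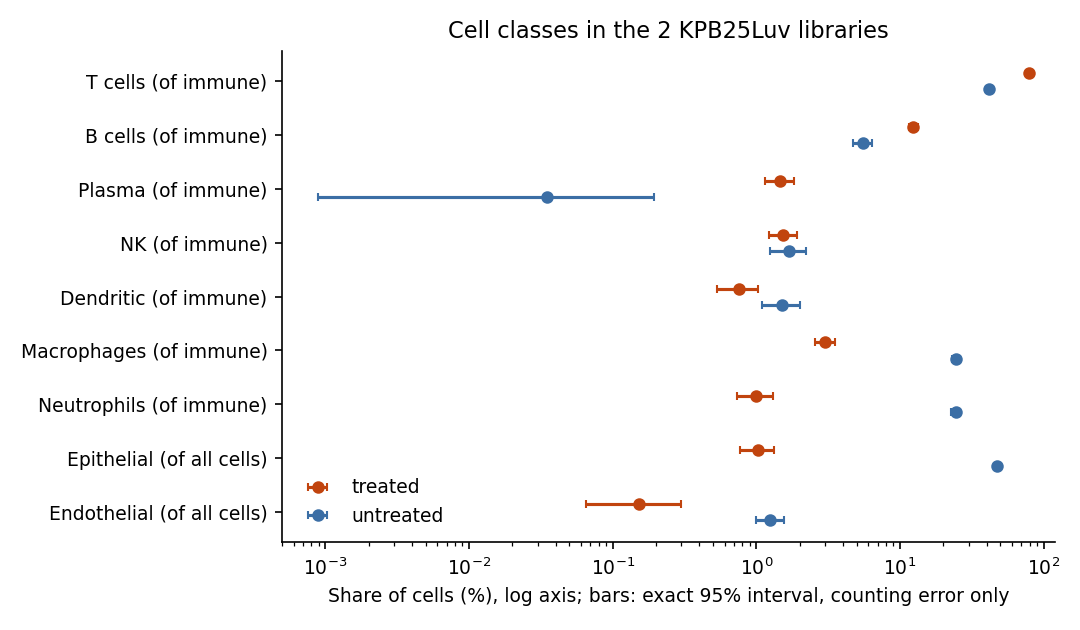
Share of each cell class in the treated (orange) and untreated (blue) library in percent on a log axis, of immune cells or of all cells as named; bars are exact 95% intervals and cover counting error only. Lymphoid classes lie to the right in the treated library, myeloid, epithelial and endothelial classes in the untreated one, and NK cells overlap.

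The gene comparisons sum the UMIs of a class in each library. A gene was read in a class if, at equal levels, each library would hold at least 10 of its UMIs, and it is called higher or lower at a 2-fold difference or more. Marker genes that set a class are not read in it.

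Treated T cells as a whole carried more transcripts of inhibitory receptors, follicular helper genes and several cytokines. Of 10126 genes read, 467 (4.61%) were higher and 508 (5.02%) lower, with a median log2 ratio of 0.08. Among 13 genes of inhibitory receptors and exhaustion, 8 were higher and 0 lower (median 1.06). Among 14 follicular helper genes, which serve CD4 T cells that help B cells, 10 were higher and 0 lower (median 1.26). These lists share Pdcd1, Btla and Tox2, so their counts are not separate. Il21, the cytokine by which follicular helper cells drive B cells, was at 5.09 CPM in treated and 0.380 CPM in untreated T cells (log2 ratio 3.43, 1.86 to 6.81), and Ascl2, a transcription factor of early follicular helper cells, at 5.89 against 0.570 CPM (3.15, 1.79 to 5.66). Both were seen in under 2% of T cells on either side. The skin-homing chemokine receptor gene Ccr10 was at 48.3 against 8.93 CPM (2.42, 2.01 to 2.89), and Clca3a1 at 42.7 against 7.79 CPM (2.44, 2.00 to 2.94).

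Granzyme genes in T cells differed in both directions. Gzma was at 67.2 against 14.2 CPM (log2 ratio 2.23, 1.90 to 2.59) and Gzmb at 114 against 37.4 CPM (1.61, 1.40 to 1.83). Gzmd was lower, at 2.43 against 16.9 CPM (-2.79), as were Gzme (-2.30) and Gzmf (-3.46). Gzmg, no member of the list and named after its value was seen, had 0 UMIs in treated and 111 in untreated T cells, at least 159-fold lower against a floor of 3 UMIs. These 4 genes are near-identical neighbours whose reads cannot be told apart with certainty, and in the untreated library they were found in no more than 1.0% of T cells. Among the 17 cytotoxicity genes read, 2 were higher and 6 lower (median -0.50); Fasl, the death ligand gene, was at 16.5 against 43.1 CPM (-1.39) and Klrg1, a receptor of terminal effector cells, at 3.10 against 12.9 CPM (-2.06). Il2 and Xcl1 were also lower in treated T cells: Il2 stood at 17.3 against 74.7 CPM (-2.11), although it was found in 6.36% of treated and 2.18% of untreated T cells, so its untreated UMIs came from a smaller share of cells.

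Mgll, a lipase gene, was at 3.32 CPM in treated and 23 CPM in untreated T cells (-2.79, -3.23 to -2.37). Qrfp (-2.29), Gas7 (-2.05), Spin2c (-1.88), Tmem37 (-1.75) and Car2 (-1.70) were the other lowest genes by the rule for named genes. None of the 6 rested on 3 cells, which held at most 14.4% of the UMIs on the higher side.

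CD8 T cells of the treated tumour held more transcripts of inhibitory and costimulatory receptors. Of 9168 genes read, 531 (5.79%) were higher and 354 (3.86%) lower. Pdcd1 (chr1:94038305-94052553, GRCm38.p6), the gene of the PD1 target, was at 52.5 CPM in treated and 8.86 CPM in untreated CD8 T cells (log2 ratio 2.54, 2.01 to 3.18). Ctla4 (chr1:60909025-60915832), the other target, was at 41.5 against 4.6 CPM (3.13, 2.41 to 4.06). Lag3 (chr6:124904359-124912434), whose product inhibits T cells on binding class II molecules, stood at 103 against 5.91 CPM (4.08, 3.46 to 4.88) and Havcr2, the gene of TIM3, at 8.55 against 0.657 CPM (3.39, 1.81 to 6.77). In all, 8 of 13 genes of the inhibitory receptor list were higher and 0 lower (median 1.82), and 6 of 12 costimulatory receptor genes were higher and 0 lower (median 1.09).

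Costimulatory and effector genes accompanied them. Icos, a costimulatory receptor gene, was at 195 against 26.6 CPM (2.86), Cd28 at 349 against 113 CPM (1.62), and Tnfrsf4, the gene of OX40, at 45.2 against 10.2 CPM (2.13). Of 10 cytokine and chemokine genes read, 6 were higher and 0 lower (median 1.52), among them Ifng at 54.0 against 8.21 CPM (2.69, 2.14 to 3.36), Tnf at 19.7 against 4.27 CPM (2.16) and Ccl3 at 85.4 against 15.1 CPM (2.49). In contrast with T cells as a whole, Il2 was higher in CD8 T cells, at 12.3 against 2.96 CPM (1.99). Gzma was at 121 against 21.7 CPM (2.47) and Gzmb at 180 against 39.7 CPM (2.17), while the perforin gene Prf1 stood at 62.6 against 39.4 CPM (0.66) and Nkg7, a granule protein gene, at 1376 against 1477 CPM (-0.10). The residency integrin Itgae was at 80.4 against 16.7 CPM (2.25) and the interleukin 7 receptor gene Il7r, a mark of memory and naive cells, at 195 against 82.1 CPM (1.25).

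Lag3 and Pdcd1 transcripts were also found in more of the CD8 T cells. Lag3 had a UMI in 24.3% of treated and 2.47% of untreated CD8 T cells, and in 9.35% (7.98 to 10.9%) and 0.979% (0.318 to 2.27%) with every cell thinned to 1000 UMIs. Pdcd1 was found in 15.3% and 2.85%, or 5.32% (4.28 to 6.52%) and 0.783% (0.214 to 1.99%) when thinned. B cells, which should lack Lag3, had it in 0.48% of treated and 0% of untreated cells at full depth, and in none of 623 and 153 thinned cells. Thinning left out 27 treated and 15 untreated CD8 T cells. The shares in CD8 T cells were thus above those in B cells in the treated library, while the thinned untreated shares overlap the upper limit of 2.38% that 0 of 153 B cells allows.

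The highest CD8 genes by the rule for named genes were Lag3, Ifitm1, Ccr10, Ccl4, Zbtb32 and Ly6a. Zbtb32, a transcriptional repressor gene of activated lymphocytes, had 216 UMIs (21.0 CPM) in treated and 0 in untreated CD8 T cells, at least 21.3-fold higher against a floor of 3 UMIs. Ly6a, the gene of the surface protein Sca-1, was at 492 against 56.8 CPM (3.11, 2.90 to 3.34). The lowest were Mgll (3.98 against 31.2 CPM, -2.96), Cuedc1, Qrfp, Spin2c, Abcb9 and Ramp1, the last at 30.3 against 90.9 CPM (-1.58).

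**Figure D3:**
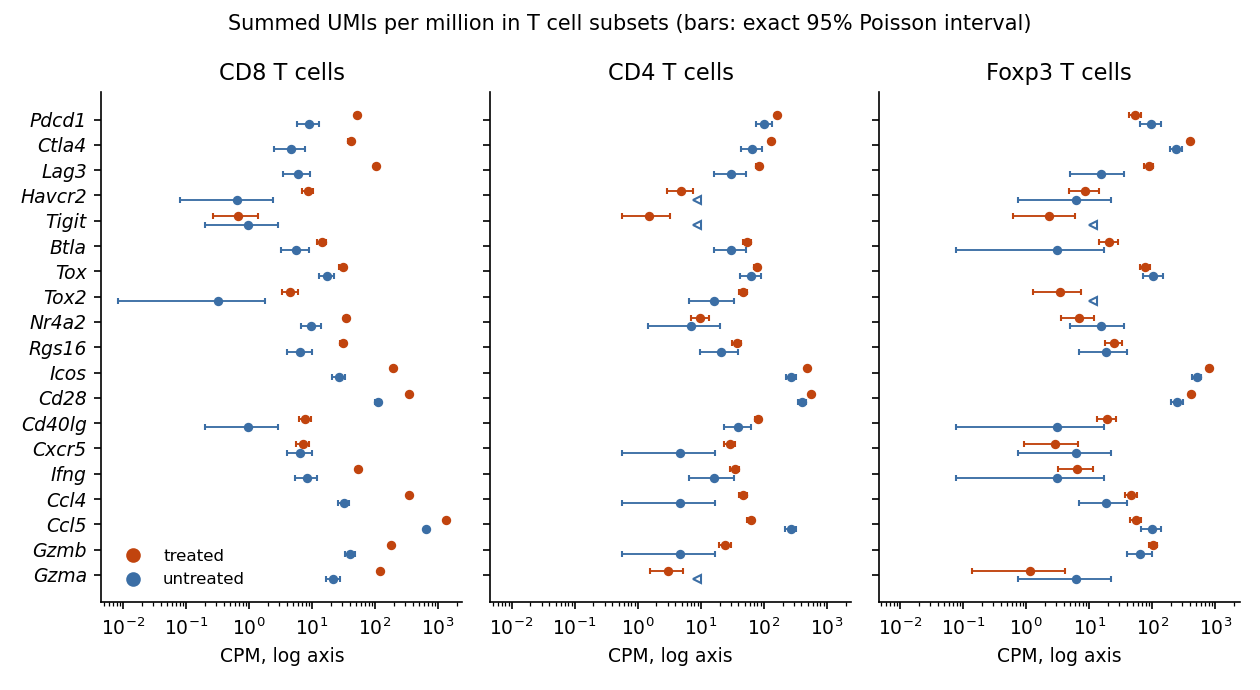
Level of inhibitory, costimulatory, cytokine and granzyme genes in CD8, CD4 and Foxp3-positive T cells of the treated (orange) and untreated (blue) library, in CPM on a log axis with exact 95% Poisson intervals; open arrows mark 0 UMIs, drawn at the upper limit. In CD8 T cells the intervals of Pdcd1, Ctla4, Lag3, Icos, Ifng and Gzma are apart. In Foxp3-positive cells most overlap, though those of Ctla4 are apart. The untreated library holds 66 Foxp3-positive and 526 CD8 T cells, so the intervals of the former are wider and overlap does not show a smaller difference.

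Treated CD4 T cells without Foxp3 held more transcripts of cell division and follicular help. Of 4682 genes read, 305 (6.51%) were higher and 63 (1.35%) lower. Of 25 proliferation genes, 14 were higher and 0 lower (median 1.04): Mki67, a marker of cycling cells, was at 103 against 32.8 CPM (1.61, 0.89 to 2.54) and Rrm2, a subunit of ribonucleotide reductase, at 297 against 72.6 CPM (2.01, 1.52 to 2.60). Of 11 follicular helper genes, 6 were higher and 0 lower (median 1.0), with Il4 at 43.9 against 4.68 CPM (2.91, 1.35 to 6.29), the follicle-homing receptor gene Cxcr5 at 28.9 against 4.68 CPM (2.31, 0.74 to 5.69) and the transcription factor gene Maf at 116 against 44.5 CPM (1.34). Kif11 and Bub1b, genes of the mitotic spindle, ranked 1 and 6 among the 6 highest genes by the rule for named genes. Kif11 had 144 against 0 UMIs, at least 5.20-fold higher, and Bub1b was at 35.8 against 2.34 CPM (3.35). Not all genes ranked between them were of the proliferation list. Igfbp4, a gene of naive T cells, was the lowest, at 34.2 against 265 CPM (-2.95, -3.32 to -2.58), while the naive and memory list had 2 of 11 genes lower and 0 higher (median -0.47). Ccl5 appeared lower, at 62.7 against 269 CPM (-2.11), but 3 untreated cells held 80.0% of its untreated UMIs. Without those 3 cells, and with all treated cells kept, its log2 ratio was 0.17.

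Regulatory T cells held the genes of their own programme at like levels. Of 3922 genes read, 161 (4.11%) were higher and 83 (2.12%) lower, or 318 and 162 by the mean of per-cell CPM, and of 11 regulatory T cell genes 0 were called in either direction (median 0.00). Ctla4 was at 398 against 240 CPM (0.72, 0.39 to 1.09), Ikzf2, the gene of Helios, at 565 against 552 CPM (0.03) and Il2ra at 240.0 against 154 CPM (0.63). Genes that stood apart were Lag3 at 88.3 against 15.4 CPM (2.39, 1.26 to 4.16) and Serpina3f, Golt1b, Ung and Serinc3. Among the lowest, H2-Aa and Ifitm1 rested on 3 untreated cells, with 96.4% and 96.7% of their UMIs; without the 3 leading cells the log2 ratios were 0.50 and 1.62 instead of -4.00 and -2.74. Tnfrsf9, the gene of 4-1BB, moved from -1.07 to -0.35 in the same way. Only 66 untreated regulatory T cells carry this comparison.

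B cells of the treated tumour showed more transcripts of division and of the germinal centre, where B cells mutate and switch their antibody genes. Of 3720 genes read, 218 (5.86%) were higher and 68 (1.83%) lower. Among 8 germinal centre genes, 4 were higher and 0 lower (median 1.07), including Mef2b, a transcription factor gene, at 57.8 against 17.9 CPM (1.58, 0.52 to 3.17). Among 19 proliferation genes 12 were higher and 1 lower (median 1.07), but the median was 0.45 when each cell had equal weight and 0.57 with cells thinned to 1000 UMIs. Rrm2 was at 76.1 against 5.97 CPM (3.35, 1.79 to 6.73). Cxcr4, a chemokine receptor gene of the germinal centre dark zone, was at 206 against 38.8 CPM (2.36, 1.62 to 3.33) and Cd83, an activation marker, at 672 against 281 CPM (1.25). Cxcr4 was found in 45.0% of treated and 7.01% of untreated B cells. It was also higher in T cells as a whole and in CD8 and CD4 T cells, so its rise was not particular to B cells. St7, Serinc3, Pclaf and Tmem123 were the other leading genes. The follicular list of resting B cells had 0 of 16 genes called (median 0.04), and the lowest genes were near 2-fold or below it, such as Cirbp (-1.45), Bcl2 (-1.07) and Ltb at 916 against 1771 CPM (-0.95).

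Plasma cells of the treated tumour were mostly of 1 isotype. Ighg1, the IgG1 heavy chain gene, held 86.0% of heavy-chain constant UMIs and was the largest heavy chain in 62 of 74 cells. Ighe, the IgE chain gene, held 10.9% and led in 7 cells, Ighm led in 4 and Ighg2c in 1. In B cells IgG1 transcripts were at 400.2 against 137 CPM (log2 ratio 1.53, 1.11 to 2.00) and Ighm at 2172 against 2078 CPM. Jchain, which joins secreted IgM and IgA and is itself a plasma cell marker, was at 147 against 26.9 CPM in B cells. T cells, which make no antibody, had 1538 Ighg1 UMIs (68.05 CPM) in the treated library and 0 in the untreated one. The part of free plasma cell RNA in the B cell levels of Ighg1 and Jchain was not tested. The single untreated plasma cell carried 2 of 8 plasma cell markers, and no comparison of plasma cell genes was made.

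Macrophages and monocytes of the treated tumour held higher levels of interferon response, antigen presentation and several alternative activation genes. Of 6146 genes read, 368 (5.99%) were higher and 724 (11.8%) lower, with a median log2 ratio of -0.17. Of 17 interferon gamma response genes 14 were higher and 0 lower (median 2.95), of 8 type I interferon response genes 7 were higher and 0 lower (median 2.96), and of 22 MHC class I presentation genes 15 were higher and 0 lower (median 1.30). Cxcl9, a ligand of CXCR3 on T cells, stood at 180.1 against 7.33 CPM (4.61, 4.09 to 5.18). H2-K1 was at 2699 against 969 CPM (1.48) and the peptide transporter gene Tap1 at 202 against 43.8 CPM (2.21). Genes of the MHC class II presentation list differed less, with 0 of 10 higher and 1, Lgmn, lower (median 0.57): H2-Aa was at 8020 against 5026 CPM (0.67).

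Acod1 (chr14:103047012-103056573), which encodes the itaconate-producing enzyme of activated macrophages, had 99 UMIs in treated and 0 in untreated macrophages, at least 234-fold higher against a floor of 3 UMIs. It was found in 36 of 152 treated macrophages, or 8.63% of cells thinned to 1000 UMIs, and in 3 of 4028 treated T cells. Neutrophils, which also hold Acod1, left more marker UMIs in treated macrophages: the 11 neutrophil markers came to 708 against 408 CPM, with 3 and 0 of them at 0, and their part in this result was not tested. Iigp1, an immunity-related GTPase gene, was at 255 against 2.31 CPM (6.73, 5.95 to 7.76), Ly6i at 877 against 14.9 CPM (5.88) and Ly6a at 1910 against 42.0 CPM (5.50). The complement gene C3 was at 372 against 12.3 CPM (4.91), while the serum amyloid gene Saa3 (4.94) had 80.6% of its treated UMIs in 3 cells. Arginase, Arg1, a gene of alternative activation, was at 4390 against 685 CPM (2.68, 2.61 to 2.75) beside these interferon response genes. Its list had 7 of 11 genes higher and 0 lower (median 2.40), but Retnla (383 against 0 UMIs) and Ccl17 (509 against 293 UMIs) were each found in under 3% of treated macrophages.

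Several genes of resident macrophages were lower after therapy. Fcrls was at 8.19 against 329 CPM (-5.21, -6.78 to -4.20), Cx3cr1, the fractalkine receptor gene, at 9.55 against 312 CPM (-4.93, -6.35 to -3.98), and Fcna had 0 against 152 UMIs, at least 7.16-fold lower. Of 8 resident macrophage genes 5 were lower and 2 higher (median -1.58), the higher ones being the chemokine genes Pf4 and Ccl8. Spp1, the osteopontin gene, was at 617 against 3296 CPM (-2.42), above a free RNA level of 362 CPM, and Apoe at 8979 against 23650 CPM (-1.40). These were the 2 lower of 11 lipid-associated macrophage genes, none of which was higher (median -0.19, beside -0.17 for all genes). Of 25 proliferation genes 16 were lower and 0 higher (median -1.50), with Ube2c at 9.55 against 143 CPM (-3.81) and Mki67 at 10.9 against 53.4 CPM (-2.21). That median was -0.46 with cells thinned to 1000 UMIs, which leaves few UMIs per gene, and -5.10 with the free RNA estimate subtracted.

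Because the share of C1q-low cells differed, C1q-low cells were also compared alone, 119 treated and 225 untreated. This limit on C1q did not make the cells alike. C1qa was still found in 3.36% of treated and 35.6% of untreated C1q-low cells, or 1.79% and 7.69% when thinned. Cx3cr1 was found in 3.36% and 29.8%, or 1.79% and 5.43% when thinned. Whether the gene differences below come from unlike cells within this set was not tested. Of 5266 genes read, 332 (6.30%) were higher and 443 (8.41%) lower. Interferon response stayed as large: 15 of 17 interferon gamma response genes (median 2.87), 10 of 11 type I genes (median 2.92) and 14 of 22 MHC class I presentation genes (median 1.24) were higher and 0 lower. Acod1 had 85 against 0 UMIs, at least 81.8-fold higher, and Cxcl10 was at 289 against 10.9 CPM (4.69, 4.02 to 5.52). Il18bp, which encodes the decoy receptor of interleukin 18 and is itself induced by interferon gamma, was at 100.0 against 1.82 CPM (5.57, 4.16 to 8.10). Arg1 was at 3781 against 1004 CPM (1.91), and Spp1 at 447 against 3848 CPM (-3.10, -3.29 to -2.92), with an untreated free RNA level of 339 CPM. Of the resident list only 4 genes were read, with 2 higher and 0 lower (median 1.22), and that direction did not hold: the median was -0.68 under a stricter marker minimum and -0.44 with the free RNA estimate subtracted.

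Neutrophils were few in the treated library, 50 against 695, and shallow, with medians of 794.5 and 959 UMIs. Of 610 genes read, 63 (10.3%) were higher and 144 (23.6%) lower (median -0.36). The 6 highest genes by the rule were Ifi47, Cxcl10, Gbp2, Acod1, Isg15 and Rtp4, all but Acod1 interferon response genes. Only Gbp2 and Isg15 of these met the minimum of 10 expected UMIs per library, so the others are not in the counts. Ifi47, an immunity-related GTPase gene, was at 2910 against 32.5 CPM (6.46, 5.85 to 7.16), Cxcl10 at 1783 against 32.5 CPM (5.76, 5.11 to 6.49), Gbp2 at 3919 against 93.7 CPM (5.38, 4.98 to 5.81), Acod1 at 1596 against 50.8 CPM (4.97), Isg15 at 4927 against 224 CPM (4.46) and Rtp4 at 1924 against 103 CPM (4.23). Of 6 MHC class I presentation genes 5 were higher and 0 lower (median 2.32), with B2m at 15740 against 3127 CPM (2.33). The chemokine genes Ccl4 (5702 against 648 CPM, 3.14), Ccl3 (6241 against 1863 CPM, 1.75) and Cxcl2 (20440 against 8650 CPM, 1.24) were also higher, while Il1b was at 15790 against 12320 CPM (0.36).

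Lower neutrophil genes included Siglecf, a lectin gene of eosinophils and long-lived tumour neutrophils, with 0 against 210 UMIs, at least 3.88-fold lower, and Scimp with 0 against 354 UMIs, at least 6.54-fold lower. Cd84 was at 46.9 against 556 CPM (-3.25) and the transcription factor gene Cebpb at 516 against 1807 CPM (-1.78, -2.49 to -1.20). Of 14 oxidative phosphorylation genes 8 were lower and 0 higher (median -1.10); their transcripts are abundant in tumour cells, and the median was -0.70 with the free RNA estimate subtracted. T cell markers came to 657 CPM in treated and 496 CPM in untreated neutrophils, and epithelial markers to 23.5 and 634 CPM. The part of these levels in the differences was not tested beyond that subtraction.

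Epithelial-like cells of the treated library held little of the leading transcripts of the untreated tumour cells. Of these treated cells 64.8% were claudin-rich, against 12.5% of the untreated ones. Whether they are of the same kind as the untreated tumour cells was not tested, so the ratios may compare unlike cells. Of 8600 genes read, 870 (10.1%) were higher and 400 (4.65%) lower in 54 treated against 3048 untreated cells. Gstt1 (chr10:75783813-75798584) was at 7.83 against 959 CPM (-6.88, -7.85 to -6.16) and was found in 6 of 54 treated against 2997 of 3048 untreated cells, or 0% and 57.3% when thinned. Igfbp6, which encodes an insulin-like growth factor binding protein, was at 7.23 against 620 CPM (-6.36, -7.37 to -5.62). The free RNA level expected for these genes in untreated epithelial-like cells was 256 and 167 CPM from the share of T cell markers there. By the largest share of any marker list the untreated levels were 2.38 and 2.36 times the free RNA level, short of the 3 times that the rule for named genes asks. C1qa, Apoe, Lyz2 and Ccl6, genes of macrophages, were also lower, but at 54.9, 396, 275 and 41.1 CPM in untreated epithelial-like cells they stood below the free RNA estimates of 107, 595, 486 and 60.5 CPM. These 6 genes were taken by the rule for named genes without its free RNA limit, since by that largest share no gene at the lower end passed it.

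Interferon response genes were higher in the epithelial-like cells of the treated library. Of 12 interferon gamma response genes 9 were higher and 0 lower (median 2.54), of 7 type I genes 6 were higher and 0 lower (median 2.69), and of 21 MHC class I presentation genes 5 were higher and 0 lower (median 0.55). Iigp1 was at 187 against 0.699 CPM (8.05, 7.63 to 8.53) in 33 of 54 against 30 of 3048 cells, or 13% and 0.0986% when thinned. Usp18 was at 278 against 3.61 CPM (6.27). C1s1, a complement protease gene, had 115 against 3 UMIs (10.44, 9.08 to 12.96) and was found in 32 of 54 treated cells. Iigp1 and C1s1 were below the minimum of 10 expected UMIs per library and are not in the counts, nor are Ctsr, Sprr2a3 and Lum. Of the other highest genes by the rule, Ctsr and Sprr2a3 had all their treated UMIs in 3 cells, Ccl11 (9.94) had 87.6% of them in 3 cells, Lum, a matrix gene of fibroblasts, was at 90.4 against 0.656 CPM (7.09), and Prlr, the prolactin receptor gene and no member by that rule (219.9 against 4.18 CPM), came from 7 cells.

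Some mesenchymal, matrix and hypoxia genes were also higher. In all epithelial-like cells 7 of 15 genes of epithelial to mesenchymal transition were higher and 2 lower (median 0.94), with Snai2 at 69.9 against 8.60 CPM (3.03) and Vim at 545 against 1614 CPM (-1.57). Of 14 matrix genes 6 were higher and 3 lower (median 0.56), and of 22 glycolysis and hypoxia genes 7 were higher and 0 lower (median 0.63). Fibroblast markers came to 711 CPM in treated and 300.2 CPM in untreated epithelial-like cells; their part in the matrix genes was not tested.

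Claudin-rich cells were compared separately, 35 treated against 382 untreated, where 679 of 7435 genes were higher and 333 lower (median 0.16). Interferon response was at least as large there: 10 of 11 interferon gamma response genes (median 3.36), 5 of 5 type I genes (median 3.23) and 12 of 19 MHC class I presentation genes (median 1.34) were higher and 0 lower. Gbp2 was at 185 against 7.52 CPM (4.61, 4.18 to 5.07) and H2-D1 at 1646 against 559 CPM (1.56). Gstt1 was still lower, at 5.21 against 297 CPM (-5.69, -7.46 to -4.61). Genes of epithelial to mesenchymal transition had 4 of 12 higher and 0 lower (median 0.68) and matrix genes 4 of 10 higher and 0 lower (median 0.32), with Col3a1 at 172 against 17.2 CPM (3.32). Single genes differed from the comparison of all epithelial-like cells: Vim was level at 411 and 411.5 CPM (0.00), Fn1 was at 1418 against 1266 CPM (0.16), and the hypoxia gene Ndrg1 turned to -1.11 from 1.5. Glycolysis and hypoxia genes then had 1 of 21 higher and 1 lower (median 0.16).

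The interferon response genes shared letters in their promoters. Promoters of 300 bases, from 250 bases before the start site to 50 after it, were listed by RefSeq (GRCm38.p6) for 31 of the 43 genes of both interferon lists. The letters GAAANNGAA, the core of the interferon-stimulated response element, were searched on both strands. They stood in 22 of the 31 promoters (71.0%) and in 2812 of all 32851 promoters (8.56%). The letters TTCNNNGAA (GAS), also searched, stood in 9 of the 31 (29%) and in 2726 of all promoters (8.3%). In macrophages, 10 of 13 genes with GAAANNGAA letters were higher (median log2 ratio 2.95) and so were 6 of 6 without them (median 2.01), so the presence of the letters did not separate higher genes from others here. The promoters of Gbp2, Cxcl10 and Isg15 are shown because the summed UMIs of these genes were higher in macrophages, neutrophils and epithelial-like cells; capitals mark the GAAANNGAA match on either strand.
Gbp2: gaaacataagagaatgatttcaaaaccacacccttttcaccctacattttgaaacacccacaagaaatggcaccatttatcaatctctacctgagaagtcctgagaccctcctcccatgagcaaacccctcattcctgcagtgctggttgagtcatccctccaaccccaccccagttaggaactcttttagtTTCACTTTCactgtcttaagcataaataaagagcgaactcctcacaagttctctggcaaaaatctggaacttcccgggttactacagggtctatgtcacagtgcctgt
Cxcl10: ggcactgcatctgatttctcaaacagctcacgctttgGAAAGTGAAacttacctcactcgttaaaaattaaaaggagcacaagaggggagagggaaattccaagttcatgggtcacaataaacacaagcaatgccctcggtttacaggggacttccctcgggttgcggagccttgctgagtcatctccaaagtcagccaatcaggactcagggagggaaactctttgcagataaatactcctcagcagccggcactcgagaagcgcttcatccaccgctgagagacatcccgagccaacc
Isg15: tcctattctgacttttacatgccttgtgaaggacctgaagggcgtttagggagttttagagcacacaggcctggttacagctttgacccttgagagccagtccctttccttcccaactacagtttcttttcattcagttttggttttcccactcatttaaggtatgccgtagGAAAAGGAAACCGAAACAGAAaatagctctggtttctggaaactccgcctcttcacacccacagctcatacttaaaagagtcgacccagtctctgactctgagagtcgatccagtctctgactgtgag
These windows are chr3:142620413-142620712 on the plus strand for Gbp2, chr5:92348840-92349139 on the minus strand for Cxcl10 and chr4:156200769-156201068 on the minus strand for Isg15. The match starts 58 bases before the start site in Gbp2 and 213 before it in Cxcl10, and Isg15 holds 3 overlapping matches 78, 72 and 66 bases before it. Gbp2 was higher in treated macrophages (2.78), neutrophils (5.38) and epithelial-like cells (2.80), Isg15 by 3.58, 4.46 and 2.69 and Cxcl10 by 4.46, 5.76 and 2.41 on the log2 scale. In epithelial-like cells Cxcl10 came from 10 of 54 treated cells (18.5%) and from 1072 of 3048 untreated ones (35.2%), or 5.56% and 4.07% when thinned, so its higher sum rested on few cells. Of other promoters looked at singly, those of Ifi47 and Acod1 held 0 GAAANNGAA matches and that of Il4 held 1. A match is a run of letters and no evidence of binding.

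In lymphocytes the list medians were nearer to those of all genes. In T cells the interferon gamma response list had 4 of 20 genes higher and 0 lower (median 0.70). Of all genes read there, 4.61% were higher (median 0.08), so the list still stood above them. In B cells 1 of 10 was higher and 0 lower (median 0.09), beside 5.86% of all genes (median 0.04). In CD8, CD4 and Foxp3-positive T cells 4 of 18, 3 of 13 and 3 of 14 were higher and 0 lower (medians 0.59, 0.33 and 0.72). MHC class I presentation genes had 0 of 23 called in T cells (median 0.32) and 1 of 21 higher in B cells (median -0.03). Type I interferon response genes had 3 of 15 higher and 0 lower in T cells (median 0.59), and 0 of 3 called in B cells (median -0.32). Their medians were 0.71 in CD8, 0.63 in CD4 and 0.88 in Foxp3-positive T cells, over 14, 5 and 4 genes. In thinned B cells Isg15 was found in 1.93% (0.999 to 3.34%) with therapy and 7.19% (3.64 to 12.5%) without, or 4.32 and 12.1% at full depth, the other direction from myeloid and epithelial-like cells. Whether classes differ in this response was not tested, since each has 1 library per side.

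**Figure D4:**
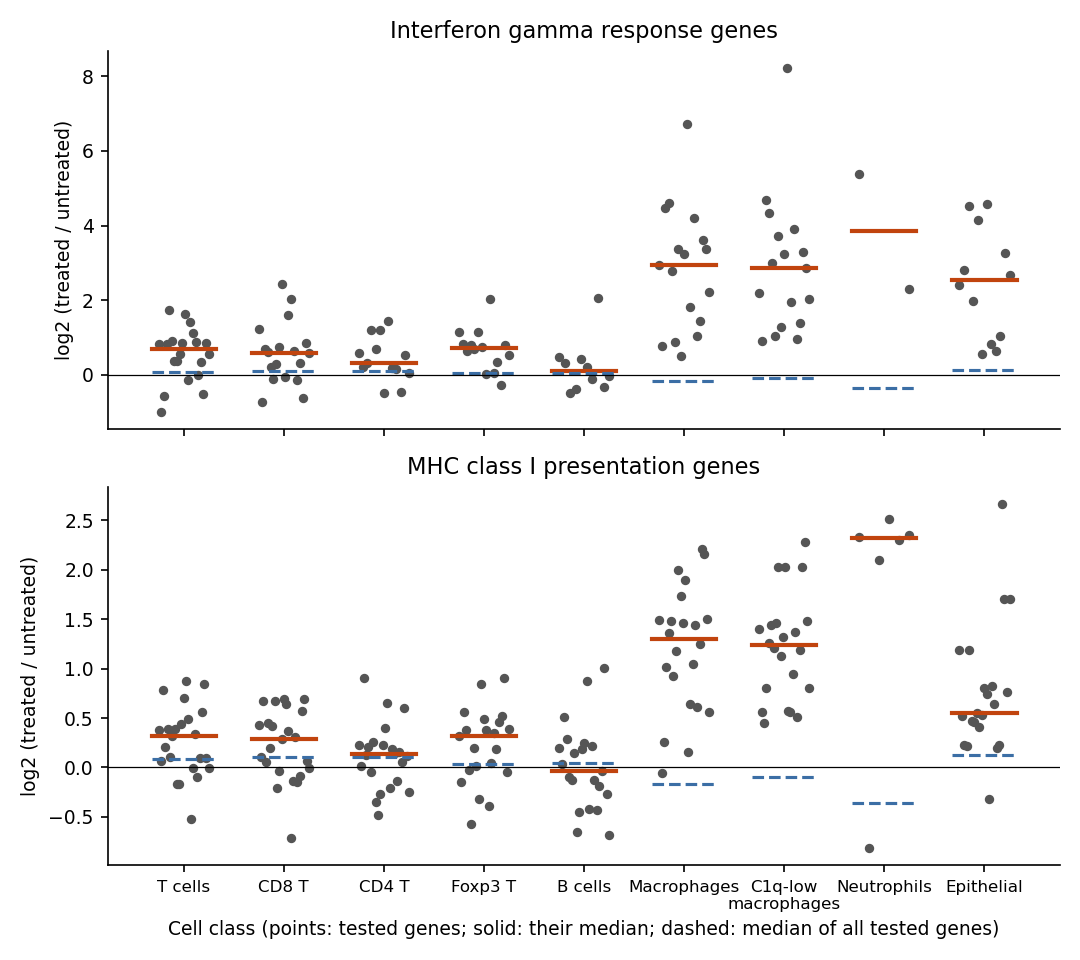
Log2 ratio of treated over untreated for each gene read of the interferon gamma response list (top) and the MHC class I presentation list (bottom), by cell class; solid lines are the median of the list and dashed lines the median of all genes read. Medians lie between 2.54 and 3.84 in macrophages, C1q-low macrophages, neutrophils and epithelial-like cells for the top list, and at 0.72 or below in lymphocytes. The value of 3.84 is that of neutrophils and rests on only 2 genes of the list of 23, Gbp2 and Psmb8.

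The genes of the 2 antibody targets and their ligands were measured in every class. Pdcd1 was highest in treated CD4 T cells, at 165 CPM (152 to 178) against 103 CPM untreated (74.9 to 138). In regulatory T cells it stood the other way, at 53.6 CPM treated (43.3 to 65.7) and 95.5 CPM untreated (64.9 to 136), intervals that touch. Ctla4 was highest in regulatory T cells, followed by CD4 T cells at 133 CPM treated (122 to 145) and 65.6 CPM untreated (43.6 to 94.7). In both libraries CD8 T cells had the lowest Ctla4 level of the 3 T cell subsets.

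Cd274 was higher in treated myeloid cells. It was at 77.8 CPM (58.9 to 101) in treated and 10.0 CPM (7.49 to 13.2) in untreated macrophages, a log2 ratio of 2.95. In neutrophils it was at 915 CPM (651 to 1251) against 59.9 CPM (43.8 to 79.8), from 39 and 46 UMIs, too few for it to be read in that class by the rule. In dendritic cells it was at 90.8 CPM (53.8 to 144) against 20.9 CPM (8.38 to 43.0). Epithelial-like cells had little of it, 7.23 CPM (3.74 to 12.6) against 0.685 CPM (0.505 to 0.908). Pdcd1lg2, the gene of PD-L2, was at 72.3 CPM (54.2 to 94.6) in treated and 5.79 CPM (3.90 to 8.26) in untreated macrophages, with 34.0% of the treated UMIs in 3 cells. Lymphocytes carried it on both sides: B cells stood at 26.7 CPM (20 to 34.8) treated and 35.8 CPM (18.5 to 62.6) untreated, and CD4 T cells at 22.8 CPM (18.4 to 28.1) and 18.7 CPM (8.09 to 36.9), so in the untreated library it was higher in B cells than in macrophages. Cd86, a ligand of CTLA4 and CD28, was level in macrophages, at 105 CPM (82.9 to 131) and 131 CPM (121 to 141).

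**Figure D5:**
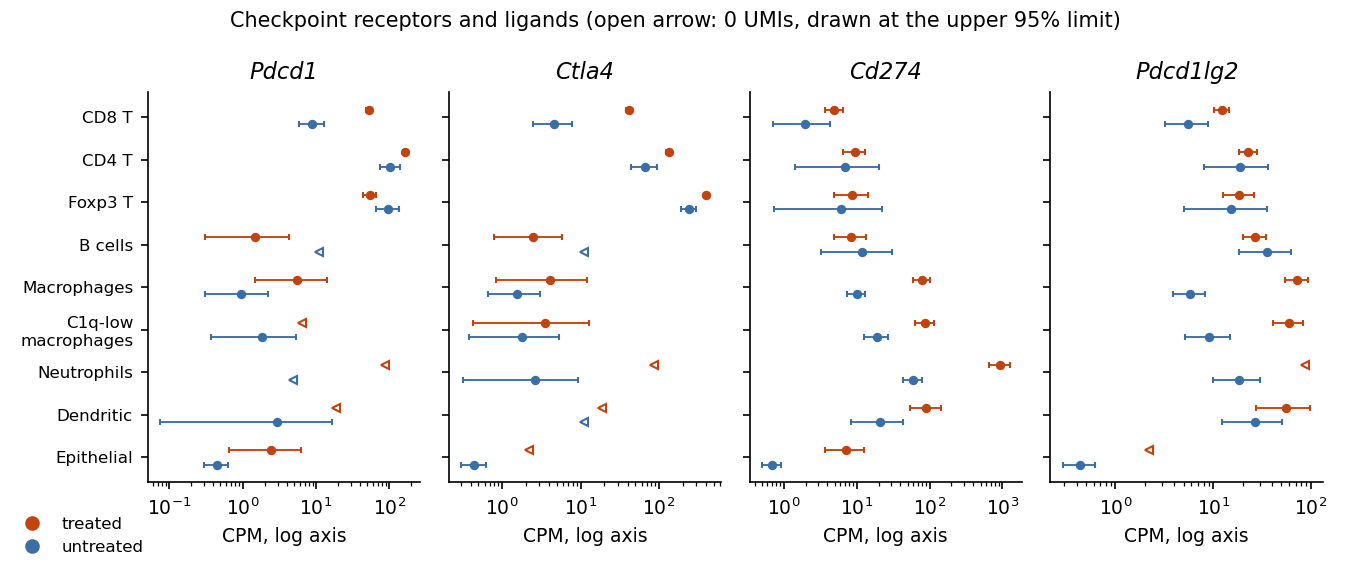
Level of Pdcd1, Ctla4, Cd274 and Pdcd1lg2 in each cell class of the treated (orange) and untreated (blue) library, in CPM on a log axis with exact 95% Poisson intervals; open arrows mark 0 UMIs, drawn at the upper limit. Pdcd1 and Ctla4 lie mainly in T cells, and Cd274 lies to the right in the treated library in macrophages, neutrophils and dendritic cells.

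The T11-Apobec pair, read with the same marker rule, showed some of these differences and not others; no difference between the models was tested. T cells were 59.3% of treated and 10.4% of untreated immune cells there, macrophages 16.1 and 70.6%, and neutrophils 0.886 and 4.64%. C1q-low cells were 20.1 and 4.73% of its macrophages. Over genes read in both models, macrophages had an interferon gamma response median of 2.95 in KPB25Luv and 2.17 in T11-Apobec, while the type I median was 2.96 and 0.46. The macrophage proliferation median was -1.50 against 0.08. In CD8 T cells the inhibitory receptor list, with 5 genes read in both, had medians of 2.54 and -0.30.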

How the data were processed

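Dissociated tumours were profiled as single cells with the 10x 3' version 2 kit, per the labels' protocols. The deposited files hold whole-number UMI counts per gene and barcode, made with Cell Ranger 3.0.2 per the file headers, and mm10 is named in the submitters' processing notes. The files list 31054 features. Classes were set by the UMIs of 112 markers of 13 classes: a cell took the class with the highest marker density relative to that class, at a score of 0.25 or more with 2 or more markers, and was left out as a possible doublet if a second class reached 0.5 of it. The markers were fixed, but this scoring rule was chosen after seeing the data; 37 treated and 171 untreated cells lay just above the limit and 14 and 100 just below it. Members, markers and 37 gene lists (534 genes, 5 of them absent) were chosen with earlier results of these data known.

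CD8 T cells had 2 or more Cd8a and Cd8b1 UMIs and no Cd4 or Foxp3. C1q-low macrophages had under 10 C1q UMIs per 10000, and claudin-rich cells 5 or more claudin UMIs per 10000. UMIs were summed per class, log2 ratios used 0.5 added counts, and intervals are exact 95% (conditional binomial, Poisson or Clopper-Pearson). They cover counting error only. The free RNA estimate, printed and subtracted, was the share at which epithelial markers (in epithelial-like cells, T cell markers) appeared in a class, relative to the library, times the gene's library level. The rule for named genes used the largest such share of any other class's markers, which is higher. Named genes were the 6 highest and 6 lowest per class by the interval end nearest 0, with 50 or more UMIs, in 5% or more of cells, at 3 times free RNA or more, leaving out class markers, histone genes, antigen receptor segments, unnamed and sex-specific genes and those of haemoglobin, ribosomal proteins and mitochondria; to these came 2 to 4 members of each list and the checkpoint genes. The ratio and calling steps were run on simulated Poisson counts, the same model that the intervals assume. Of genes simulated at 2.5-fold higher, 94% were called in T cells, 84.1% in macrophages and 87.2% in neutrophils. The simulated counts had no spread between cells or samples, so this run cannot show how the comparison behaves with such spread. Alternatives were other cell filters, marker minimums, a Scrublet removal, thinning, weighting, free RNA subtraction, minimum counts and folds. Tools were scanpy 1.11.5, scipy 1.17.1, pandas 2.3.3 and numpy 2.4.6 under Python 3.11.15. Some genes that the rule names are not reported here.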

Additional observations from a re-analysis of the deposited data

Results flagged for a closer look

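In 8 results the KPB25Luv and T11-Apobec tumours differed 2-fold or more in opposite directions between treated and untreated; each model has 1 library per side, and the difference between models was not tested. Ccl4 had a log2 ratio of 2.32 in KPB25Luv T cells and -1.40 in T11-Apobec T cells, and in CD8 T cells 3.43 and -2.98. Cxcr4 in B cells had 2.36 and -1.77. Gstt1 in epithelial-like cells had -6.88 and 3.15, the latter from 61 treated and 96 untreated cells. The median of T helper cytokines and chemokines in CD8 T cells, over genes read in both models, was 1.05 and -2.14. The median of resident macrophage genes in C1q-low macrophages was 1.22 and -1.33, over 4 genes. In epithelial-like cells the median of MHC class II presentation genes was -1.38 and 1.54, and that of extracellular matrix genes 1.11 and -2.63. Of 7 class II presentation genes read in KPB25Luv alone, H2-Aa, H2-Ab1 and Ctss were lower and H2-DMb1 higher. The free RNA level of these genes is not given here. Epithelial-like cells were 47.1% of untreated KPB25Luv cells and 0.930% of untreated T11-Apobec cells. Their results, Gstt1 among them, may therefore compare unlike cells between the models.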

How the results depend on the processing

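Of the shares recomputed under alternatives 65 stayed within their intervals, 16 moved and 3 reversed. Of the counts of called genes 61 stayed within 1.5 times and 49 did not. List medians and named genes were counted as staying if being past 2-fold or not did not change, whatever the size of the value. By that rule 607 list medians stayed, 36 moved and 2 reversed, and 470 named genes stayed, 18 moved and 3 reversed. Share log2 ratios that moved were 0.798 for T cells and -7.88 for neutrophils with a floor of 500 genes, 1.66 for C1q-low macrophages under a stricter marker minimum, and, thinned before classes were set, 0.779 for T cells, 0.643 for plasma cells, -5.72 for neutrophils, 0.177 for CD8 and 0.268 for CD4 T cells. Over all kept cells they were 2.05 for T, 0.991 for NK and 2.29 for B cells, -1.91 for macrophages, -3.49 for neutrophils, 1.96 for CD8, 2.78 for CD4 and 2.27 for Foxp3-positive T cells, and reversed to 0.12 for dendritic cells, -0.62 for C1q-low macrophages and -3.13 for claudin-rich cells, as the denominator changed. Higher and lower genes at 30 expected UMIs, where fewer genes are read, were 292 and 217 in T cells, 294 and 133 in CD8, 99 and 11 in CD4, 49 and 20 in Foxp3-positive T cells, 51 and 7 in B cells, 147 and 280 in macrophages, 132 and 137 in C1q-low macrophages, 23 and 43 in neutrophils and 407 and 228 in epithelial-like cells. At 1.5-fold they were 1469 and 1024, 1554 and 839, 817 and 318, 545 and 346, 558 and 338, 846 and 1601, 775 and 1142, 102 and 242, and 2023 and 1034 in the same order. With free RNA subtracted they were 812 and 185 in T cells, 975 and 132 in CD8, 533 and 33 in CD4 T cells and 2042 and 130 in epithelial-like cells, and the lower genes 55 in Foxp3-positive T cells, 35 in B cells and 79 in neutrophils. By mean per-cell CPM, Foxp3-positive T cells had 318 and 162. The median of resident macrophage genes in C1q-low macrophages reversed to -0.68 (stricter marker minimum) and -0.44 (free RNA subtracted). Without the 3 leading untreated cells, Ccl5 in CD4 T cells reversed to 0.17, and H2-Aa and Ifitm1 in Foxp3-positive T cells to 0.50 and 1.62. This alternative was chosen after seeing the data and removed cells only from the library where the gene was higher. Thinned list medians could not be had for neutrophils. No paired analysis was possible because each group is 1 library. The cause of other changes was not tested.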
